A study of Mus musculus with 8 samples.

Results

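Retinoic acid is made, carried, used and broken down by small families of proteins, and 8 of their genes were followed in embryonic mouse diaphragm: *Aldh1a1*, *Aldh1a2*, *Aldh1a3*, *Crabp1*, *Crabp2*, *Cyp26b1*, *Stra6* and *Rxrg*. They were chosen by symbol, and all 8 are among the 19465 genes for which the probe set gave counts. The study placed 5 µm sections of formaldehyde-fixed, paraffin-embedded diaphragm on Visium slides, on which barcoded spots at a spacing of 100 µm count unique molecular identifiers (UMIs) per gene with pairs of probes. Of 8 sections, 3 were controls at E14.5, 2 were controls at E18.5, and 1 each was CaV1.1 -/- at E14.5 (KO), CaV1.1 -/- at E18.5 (KO) and bCat cKO at E18.5 (cKO). Control embryos kept at least 1 working allele of the calcium channel CaV1.1 and at least 1 of β-catenin, and were otherwise of unstated genotype. The KO lacks the voltage sensor of excitation-contraction coupling in the whole embryo. In the cKO, β-catenin is deleted by HSA-Cre, whose actin promoter is active in skeletal muscle fibers, so other cells keep the gene. KO embryos could come, and cKO embryos came, from crosses that also carried mutant or floxed alleles of the other gene, and which of these a given section had is not stated. Each mutant group has 1 section, so its differences from the controls have no replicate of the mutant.

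Retinol reaches cells bound to a carrier in blood, is oxidized to retinaldehyde and then, irreversibly, to retinoic acid. Retinoic acid binds nuclear receptors that pair with a retinoid X receptor on DNA, and its local level is set by where it is made and where it is degraded. In the embryonic diaphragm the pathway is best known for its role in the folds of mesothelium and connective tissue into which muscle precursors migrate, since disturbed retinoid signaling leaves holes in the diaphragm.

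The genes fall into 4 roles. The 3 retinaldehyde dehydrogenases, which carry out the last step of synthesis, are *Aldh1a1* (ENSMUSG00000053279, chromosome 19:20492715-20643465), *Aldh1a2* (ENSMUSG00000013584, chromosome 9:71215789-71296243) and *Aldh1a3* (ENSMUSG00000015134, chromosome 7:66390890-66427517). *Stra6* (ENSMUSG00000032327, chromosome 9:58063788-58153996) is the membrane receptor that takes up retinol from its carrier, and *Crabp1* (ENSMUSG00000032291, chromosome 9:54764748-54773110) and *Crabp2* (ENSMUSG00000004885, chromosome 3:87948666-87953376) bind retinoic acid in the cytoplasm. *Cyp26b1* (ENSMUSG00000063415, chromosome 6:84571414-84593908) is a cytochrome P450 that breaks retinoic acid down. *Rxrg* (ENSMUSG00000015843, chromosome 1:167598384-167639623) encodes the retinoid X receptor γ, a nuclear receptor that pairs with retinoic acid and thyroid hormone receptors. Positions are those of GRCm38, *Aldh1a3* and *Cyp26b1* lie on the minus strand, and all 8 are protein-coding.

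The sections held 14179161 to 82859104 UMIs, with a median of 15434 to 45284 per spot, and 683 to 3460 spots with at least 1000 UMIs each were kept. A spot is a small region that can hold several cells. Spots were called muscle where 9 sarcomere and other muscle genes were jointly high, which gave 491 to 3092 muscle spots and 102 to 580 spots outside muscle per section. Their summed level was 27362, 21642 and 22937 counts-per-million (CPM, per UMI of the region) in muscle spots against 8681, 5636 and 6262 in other spots of the E14.5 controls. The spots outside muscle of E14.5 control 3 numbered 102, against 264 to 580 elsewhere, and hold the fewest UMIs. *Cacna1s*, the CaV1.1 gene, stood at 16.2 and 31.4 CPM in muscle of the KO at E14.5 and E18.5, against 18.9, 18.3 and 22.8 and 61.2 and 63.9 in the controls of each stage. *Ctnnb1*, the β-catenin gene, stood at 81.5 CPM in muscle of the cKO against 75.9 and 71.2. So *Ctnnb1* was not lower in the section labelled cKO, and *Cacna1s* was only slightly lower in the section labelled KO at E14.5. Where the probes of both genes lie relative to the mutations is not given, so these values may check nothing, and every mutant direction below rests on the labels.

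Since spots of 1 section are not replicates, counts were added up by section and region and compared with edgeR's quasi-likelihood test. A gene was called where its Benjamini-Hochberg-adjusted p over all genes tested was below 0.05. Levels are normalized CPM, that is CPM of the region after edgeR's TMM scaling, and are comparable for 1 gene within 1 comparison. In sums of a region, fewer cells that express a gene and less RNA per cell cannot be told apart. The mutant sections were assumed to vary as the controls do. Where sections are said to lie apart, above or below others, this describes their order. The share of all genes with such an order was not counted.

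Between E14.5 and E18.5 most of these genes changed level in muscle. *Aldh1a1* and *Cyp26b1* were higher at E18.5, *Aldh1a3*, *Crabp1*, *Crabp2* and *Stra6* were lower, and *Rxrg* was slightly higher. Of the 8 genes, 7 were called, 3 of them higher and 4 lower at E18.5, in a comparison that called 65.6% of the 14832 genes tested. The median log2 fold change was −1.47 over the 8 genes and −0.01 over all genes tested.

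Among the synthesis enzymes, *Aldh1a1* stood at 0.760, 1.36 and 1.51 normalized CPM in muscle of E14.5 controls 1, 2 and 3, whereas E18.5 controls 1 and 2 held 8.20 and 17.96. Both E18.5 sections lay above all E14.5 sections, 10.8-fold on average (log2 fold change 3.44, standard error 0.38, edgeR adjusted p = 1.23e-04). The E14.5 values rest on 18, 49 and 24 UMIs. *Aldh1a3*, the enzyme with a leading role in eye and nasal development, went the other way, from 35.9, 30.4 and 32.0 to 6.89 and 5.95. It was 5.10-fold lower at E18.5, with no overlap between stages (log2 fold change −2.35, standard error 0.13, edgeR adjusted p = 3.66e-06). *Aldh1a2*, the main enzyme of early embryos, held 10.8, 19.0 and 15.3 at E14.5 and 8.78 and 11.3 at E18.5. E18.5 control 2 lay above the lowest E14.5 section, and the difference was not called (log2 fold change −0.58, standard error 0.23, edgeR adjusted p = 0.0566). It was called in 6 of 11 alternatives, among them DESeq2 at −0.57 (adjusted p = 0.0439) and library totals without TMM at −1.31 (adjusted p = 0.00216).

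The uptake receptor and the binding proteins were all lower at E18.5. *Crabp1* stood at 53.7, 62.3 and 54.1 normalized CPM at E14.5 and at 4.43 and 3.28 at E18.5, 14.7-fold lower (log2 fold change −3.87, standard error 0.16, edgeR adjusted p = 1.34e-06). *Crabp2*, which delivers retinoic acid to its receptor in the nucleus, was at 49.9, 49.8 and 48.8 and then at 2.65 and 3.61, 15.9-fold lower (log2 fold change −3.99, standard error 0.14, edgeR adjusted p = 9.06e-07). The 3 E14.5 sections were nearly equal in *Crabp2*, and the lowest was over 10 times the highest E18.5 section. *Stra6* had 324, 474 and 199 UMIs in muscle of the E14.5 controls and only 8 and 18 in the E18.5 controls, which hold more UMIs in all. As normalized CPM this is 13.7, 13.2 and 12.5 against 0.145 and 0.391 (log2 fold change −5.63, standard error 0.32, edgeR adjusted p = 5.01e-06).

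*Cyp26b1* was low in muscle at both stages, at 1.27, 2.14 and 1.95 normalized CPM at E14.5 and 2.91 and 3.78 at E18.5 (log2 fold change 0.90, standard error 0.27, edgeR adjusted p = 0.0208). The stages did not overlap, but the call rested on E18.5 control 2: without it the log2 fold change was 0.70 (adjusted p = 0.113). It was 0.29 (adjusted p = 0.444) over muscle spots surrounded by muscle alone, and 0.17 (adjusted p = 0.617) without TMM scaling. *Rxrg* stood at 122, 97.4 and 99.2 at E14.5 and 152 and 137 at E18.5, with both E18.5 sections on top (log2 fold change 0.45, standard error 0.12, edgeR adjusted p = 0.0117). This small difference was not called without E18.5 control 1, where it was 0.37 (adjusted p = 0.0609). Scaled to library totals without TMM, the median of all genes lay at −0.73 and *Rxrg* turned to −0.27 (adjusted p = 0.0333), so the direction of *Rxrg* depends on the scaling. The other calls in muscle between stages kept their direction without TMM.

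**Figure D1:**
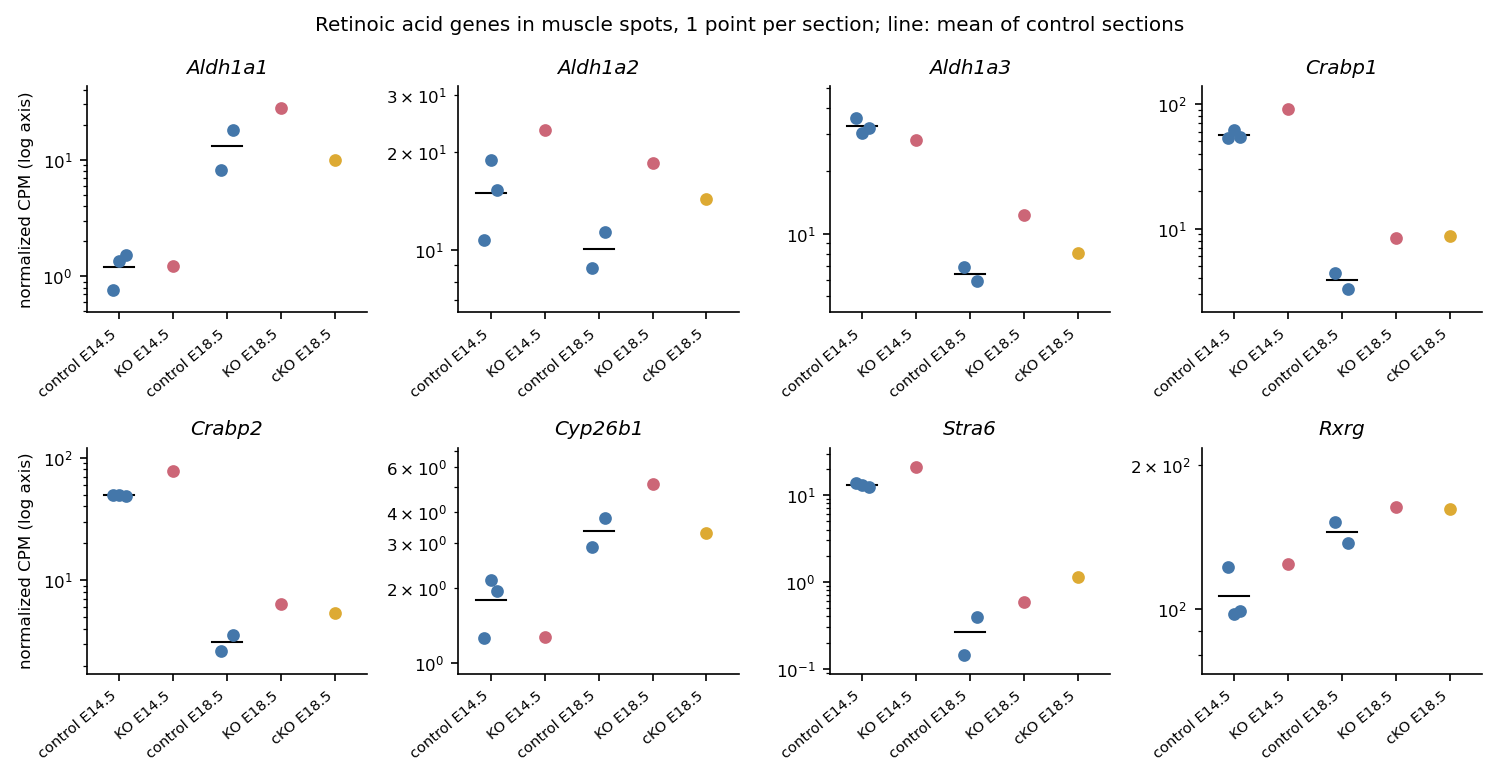
Normalized CPM of the 8 genes in muscle spots on log axes, 1 point per section, for controls (blue), KO (red) and cKO (yellow) at E14.5 and E18.5, with a line at the mean of the controls of a stage. *Crabp1*, *Crabp2* and *Stra6* drop by over 10 times from the E14.5 to the E18.5 controls while *Aldh1a1* climbs. At E18.5 the KO points of all 8 genes lie above both controls, and only *Aldh1a3*, *Crabp1* and *Crabp2* were called there.

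Outside muscle, in tendon, mesothelium, connective tissue and neighboring tissue, 5 of the 8 genes were called between stages, 2 higher and 3 lower at E18.5, where 30.6% of 14799 genes were called. *Aldh1a1* rose from 4.21, 10.5 and 4.80 to 43.9 and 38.5 normalized CPM (log2 fold change 2.58, standard error 0.38, edgeR adjusted p = 0.00614). *Cyp26b1* went from 4.30, 17.2 and 11.6 to 39.4 and 46.9 (log2 fold change 1.98, standard error 0.53, edgeR adjusted p = 0.035). In both genes each E18.5 section lay above every E14.5 section, and the share of all genes that do so was not counted.

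*Crabp1* fell from 96.1, 81.3 and 73.3 to 4.34 and 8.71 (log2 fold change −3.68, standard error 0.31, edgeR adjusted p = 0.00191) and *Crabp2* from 98.9, 151 and 146 to 11.7 and 18.7 (log2 fold change −3.11, standard error 0.30, edgeR adjusted p = 0.00214). *Stra6* fell from 14.9, 11.2 and 4.11 to 1.502 and 1.74 (log2 fold change −2.696, standard error 0.57, edgeR adjusted p = 0.0176), on 9 and 11 UMIs at E18.5. In all 3 genes the stages did not overlap, and the share of all genes without overlap was not counted. The *Cyp26b1* and *Stra6* calls depended on single sections. *Cyp26b1* was not called without E14.5 control 3 at 1.99 (adjusted p = 0.0954), without E18.5 control 1 at 2.10 (adjusted p = 0.087) or without E18.5 control 2 at 1.85 (adjusted p = 0.125), nor with a block for the replicate number at 2.29 (adjusted p = 0.0723). *Stra6* was not called without E14.5 control 2 at −2.64 (adjusted p = 0.0555), E18.5 control 1 at −2.61 (adjusted p = 0.0804) or E18.5 control 2 at −2.82 (adjusted p = 0.078).

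The other 3 genes were not called between stages outside muscle. Of these, *Aldh1a2* varied between sections of 1 stage, with 49.5, 54.8 and 33.6 at E14.5 and 56.7 and 16.8 at E18.5, so that E18.5 control 1 was the highest of the 5 and E18.5 control 2 the lowest (log2 fold change −0.36, standard error 0.49, edgeR adjusted p = 0.609). Without E18.5 control 1 the *Aldh1a2* difference was called, at −1.49 (adjusted p = 0.0325). The summed mesothelium list moved along with it, at 776 and 316 CPM in the same E18.5 sections. Its part in the difference was not tested. *Aldh1a3* stood at 18.2, 25.4 and 13.02 and then 12.8 and 24.7 (log2 fold change −0.05, standard error 0.37, edgeR adjusted p = 0.938), and *Rxrg* at 57.0, 46.7 and 43.8 and then 70.1 and 46.9 (log2 fold change 0.24, standard error 0.21, edgeR adjusted p = 0.425), both with overlapping stages.

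**Figure D2:**
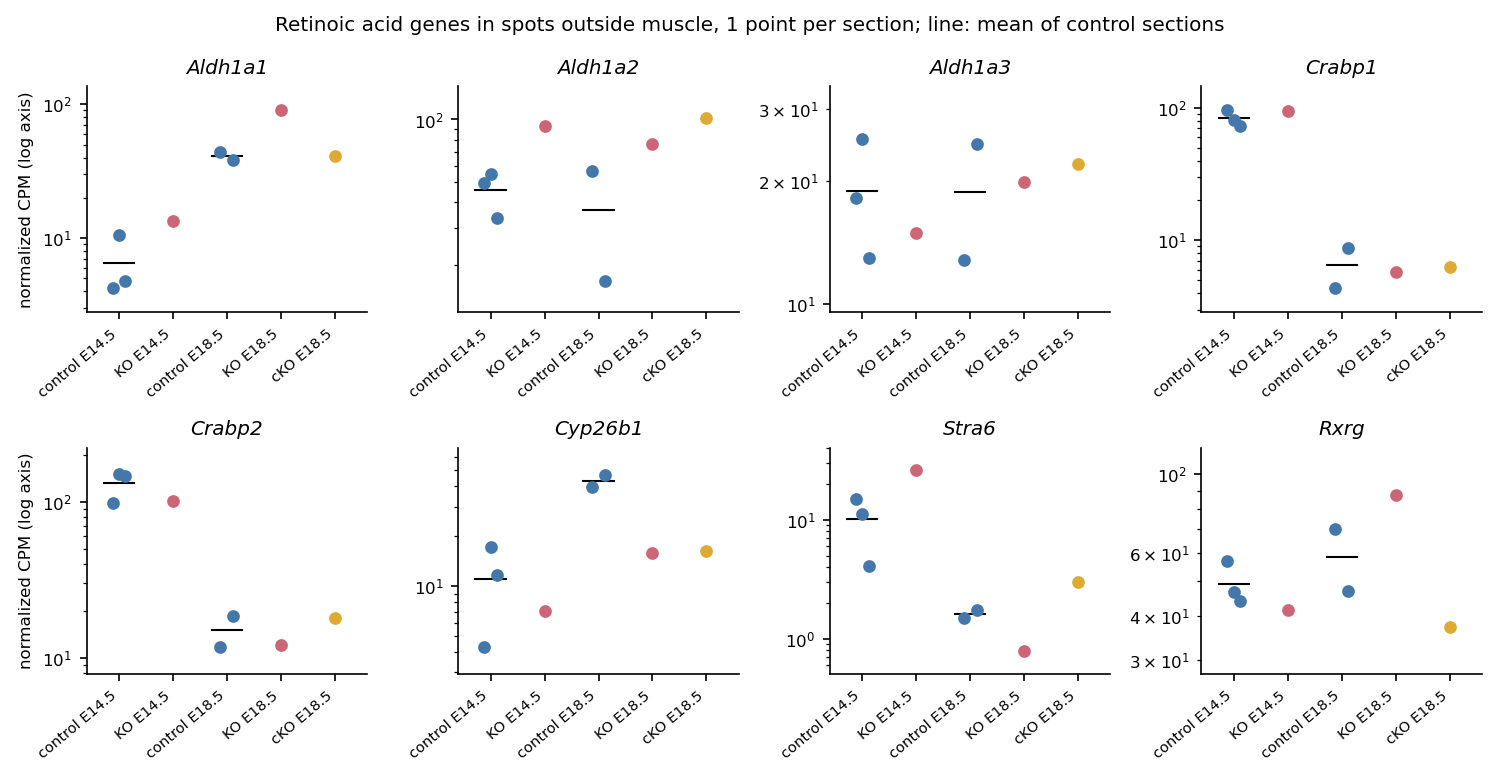
Normalized CPM of the 8 genes in spots outside muscle on log axes, 1 point per section, for controls (blue), KO (red) and cKO (yellow), with a line at the mean of the controls of a stage. *Crabp1* and *Crabp2* fall between stages as they do in muscle, whereas *Aldh1a2* spreads from 16.8 to 56.7 in the 2 E18.5 controls.

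Within a section the genes differed in whether they lay in muscle. Muscle spots held 67.5, 75.6 and 90.6 percent of all UMIs in E14.5 controls 1, 2 and 3, and 91.5 and 90.1 percent in E18.5 controls 1 and 2, which is the share to set against that of each gene. *Rxrg* was the muscle gene of the group, with 82.7, 88.0 and 96.1 percent of its UMIs in muscle at E14.5 and 95.2 and 95.5 percent at E18.5, above the share of all UMIs in 5 of 5 sections. Per UMI it was 2.73-fold higher in muscle than in other spots at E14.5 (log2 fold change 1.45, standard error 0.09, edgeR adjusted p = 1.61e-04) and 3.32-fold higher at E18.5 (log2 fold change 1.73, standard error 0.11, edgeR adjusted p = 5.73e-05). Of the 8 genes, 6 were called at E14.5, 2 of them higher in muscle, and 7 at E18.5, 1 of them higher, where 40.9% and 57.9% of 14117 genes were called.

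*Cyp26b1*, the breakdown enzyme, lay mostly outside muscle in 4 of 5 sections, with 39.5, 30.6 and 64.6 percent of its UMIs in muscle at E14.5 and 40.4 and 37.0 percent at E18.5. It was 4.50-fold lower in muscle at E14.5 (log2 fold change −2.17, standard error 0.25, edgeR adjusted p = 9.63e-04) and 9.78-fold lower at E18.5 (log2 fold change −3.29, standard error 0.26, edgeR adjusted p = 8.33e-05). *Crabp2* had 52.8, 53.9 and 78.5 percent in muscle at E14.5 and 67.6 and 58.5 percent at E18.5, below the share of all UMIs in 5 of 5 sections. Its log2 fold change was −1.03 (standard error 0.12, edgeR adjusted p = 0.00101) at E14.5 and −1.86 (standard error 0.20, edgeR adjusted p = 2.65e-04) at E18.5. *Crabp1* was called at neither stage (−0.22 and −0.36, edgeR adjusted p = 0.367 and 0.381), and its share of UMIs in muscle was 55.3, 73.0 and 89.0 percent at E14.5 and 90.4 and 73.3 percent at E18.5.

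The 3 synthesis enzymes were not distributed alike. *Aldh1a1* was lower in muscle at both stages, −2.20 (standard error 0.38, edgeR adjusted p = 0.00471) and −1.35 (standard error 0.33, edgeR adjusted p = 0.0113), with 28.6, 31.4 and 77.4 and 63.2 and 77.3 percent of its UMIs in muscle. Without E14.5 control 2 the first was −1.85 (adjusted p = 0.0572), and without E18.5 control 1 the second was −0.73 (adjusted p = 0.0977). *Aldh1a2* had 32.5, 55 and 83.2 percent of its UMIs in muscle at E14.5 and 58.7 and 83.1 percent at E18.5, again below the share of all UMIs in every control. It was called lower in muscle at −1.34 (standard error 0.39, edgeR adjusted p = 0.0307) and −1.32 (standard error 0.48, edgeR adjusted p = 0.0488).

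Both *Aldh1a2* calls were near the threshold. At E14.5 it was not called without control 1, 2 or 3 of that stage, at −1.03 (adjusted p = 0.15), −1.44 (adjusted p = 0.101) and −1.50 (adjusted p = 0.059). At E18.5 it fell to −0.20 (adjusted p = 0.662) without E18.5 control 1, and was −1.30 (adjusted p = 0.0722) and −1.31 (adjusted p = 0.0713) without E14.5 controls 2 and 3, which share the estimate of spread.

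*Aldh1a3* changed sides. At E14.5 81.4, 80.9 and 96.4 percent of its UMIs lay in muscle, above the share of all UMIs in 3 of 3 sections, and it was higher in muscle (log2 fold change 1.08, standard error 0.25, edgeR adjusted p = 0.0134). At E18.5 83.1 and 63.7 percent did, below the share of all UMIs in both sections, and it was lower in muscle (log2 fold change −1.11, standard error 0.31, edgeR adjusted p = 0.0191). The difference between the stages was itself called, at −2.18 (standard error 0.40, edgeR adjusted p = 0.0113), in a test that called 21% of 14117 genes. That difference was called in every alternative run, but each stage's own value leaned on single sections. The E14.5 value was 0.94 (adjusted p = 0.0788) without control 1 and 0.96 (adjusted p = 0.052) without control 3, and the E18.5 value was −0.51 (adjusted p = 0.25) without control 2.

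*Stra6* also moved out of muscle in relative terms, with 67.1, 80.6 and 97.1 percent of its UMIs in muscle at E14.5 and 47.1 and 62.1 percent at E18.5. It was not called at E14.5 (log2 fold change 0.66, standard error 0.29, edgeR adjusted p = 0.11) and lower in muscle at E18.5 (log2 fold change −2.22, standard error 0.58, edgeR adjusted p = 0.0152), on 8 and 18 UMIs in muscle and 9 and 11 outside it. The change between stages was −2.89 (standard error 0.65, edgeR adjusted p = 0.0233). Without E18.5 control 1 the E18.5 value was −1.77 (adjusted p = 0.0969). The change between stages was not called without E14.5 control 2 at −2.97 (adjusted p = 0.0592), E18.5 control 1 at −2.38 (adjusted p = 0.0861) or E18.5 control 2 at −3.54 (adjusted p = 0.0639).

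*Crabp2* was the third of the genes called for a change of place, since its deficit in muscle was larger at E18.5 (log2 fold change −0.83, standard error 0.23, edgeR adjusted p = 0.0435). Without E14.5 controls 2 and 3 or E18.5 controls 1 and 2 in turn, the change in *Crabp2* was −0.94 (adjusted p = 0.0595), −0.91 (adjusted p = 0.0579), −0.96 (adjusted p = 0.0729) and −0.70 (adjusted p = 0.232). *Cyp26b1*, at −1.12 (standard error 0.35, edgeR adjusted p = 0.0628), was not called.

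**Figure D3:**
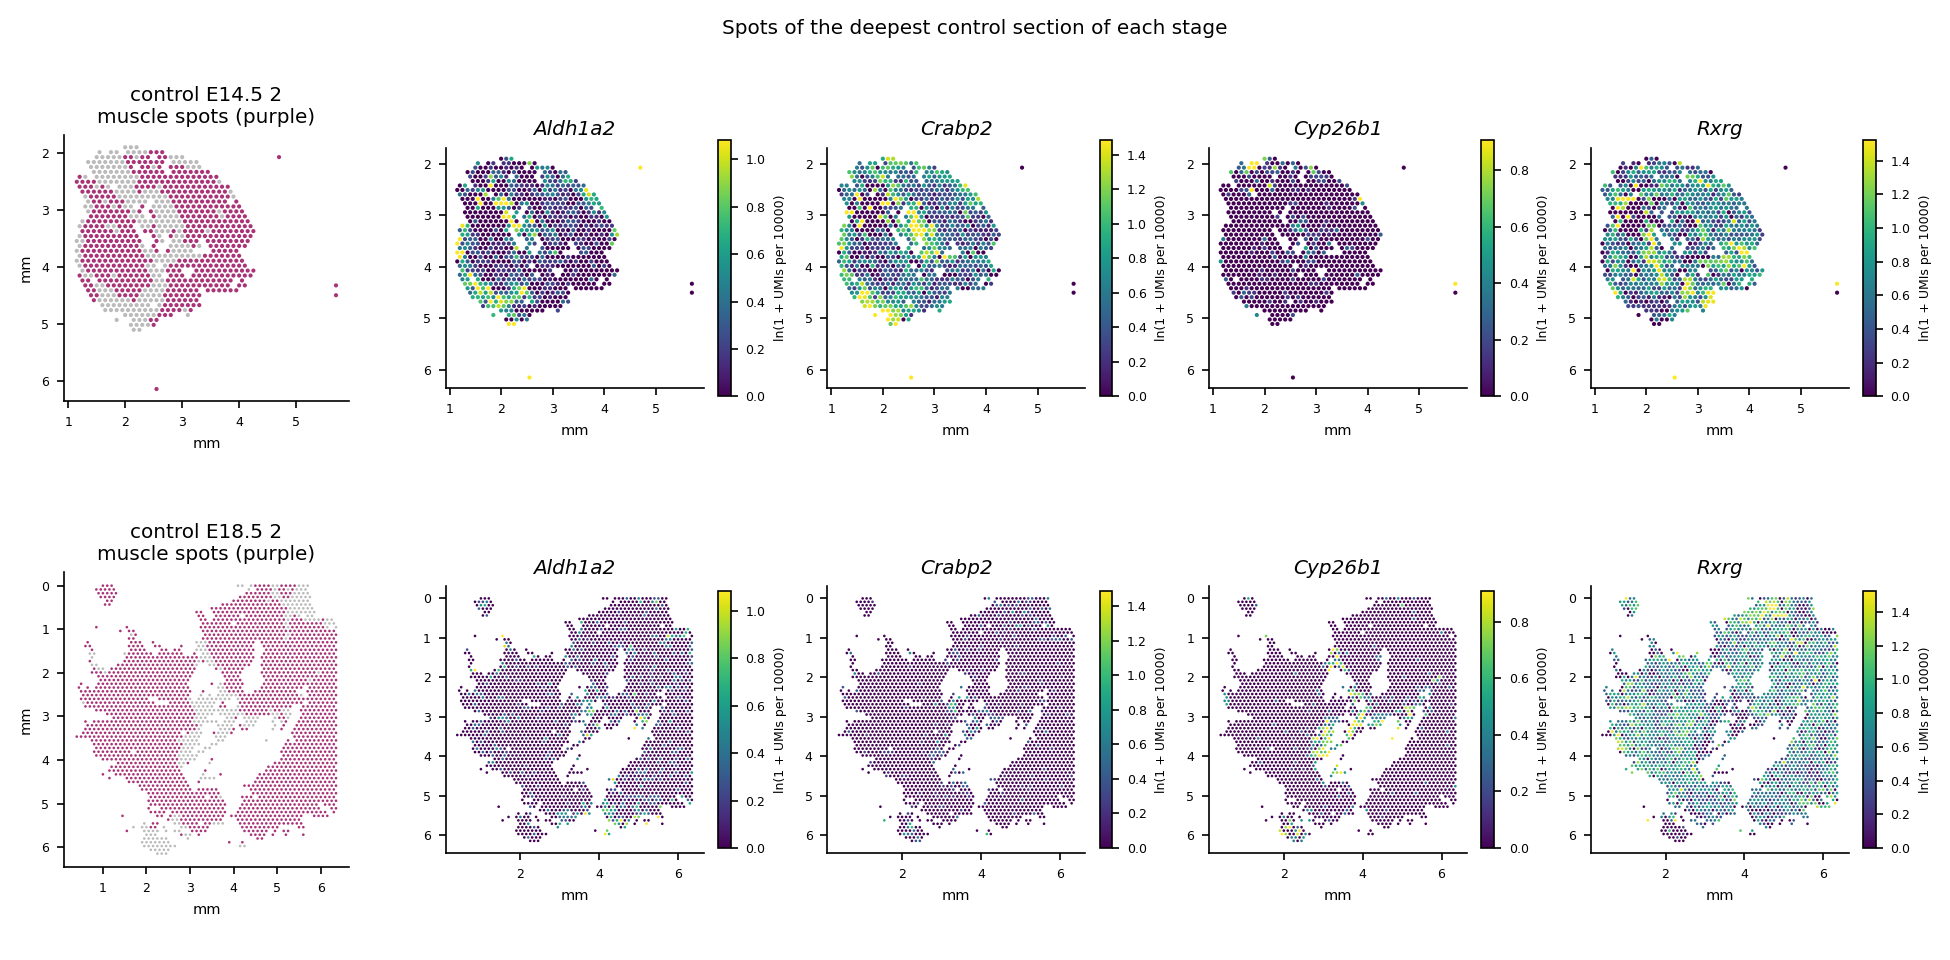
Spots of E14.5 control 2 (top) and E18.5 control 2 (bottom) by position in mm, with muscle spots in purple at the left and, in the other panels, the natural log of 1 plus UMIs per 10000 UMIs of the spot on 1 color scale per gene, which saturates at its highest 1 percent of spots. At E14.5 *Aldh1a2* and *Crabp2* are bright along the outline and in the tissue between the muscles, at E18.5 *Crabp2* is dark nearly throughout and *Cyp26b1* is bright in part of the tissue between the muscles, and *Rxrg* covers muscle at both stages. A few spots lie apart from the section.

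Levels of *Crabp2*, *Aldh1a2* and *Cyp26b1* were compared between the muscle edge and its inside. In spots of muscle that touch a spot outside it, *Crabp2* stood at 80.1, 85.8 and 78.1 CPM (of those spots, without TMM) in the E14.5 controls, and in muscle spots beyond the third spot inward at 42.4, 46.5 and 61.5. *Aldh1a2* stood at 21.7, 35.8 and 33.8 CPM in touching spots and 6.25, 11.97 and 15.4 far inside. At E18.5 the touching and far values were 13.5 and 14.4 against 5.06 and 7.41 for *Aldh1a2* and 8.36 and 15.1 against 1.02 and 0.983 for *Cyp26b1*. In each of these pairs the edge was higher in every control section. These values carry no test, and muscle spots at the edge lie next to the tissue outside.

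Muscle itself has an endplate-rich center, where nerves meet fibers, and a periphery, where fibers meet tendon. The center was taken as the 15% of muscle spots highest in 8 endplate genes, such as *Chrna1* and *Musk*, and the periphery as the 15% highest in *Col22a1*, *Ankrd1* and *Uchl1*. *Rxrg* was not used to find either. At E14.5, 5 of 8 genes were called between them, 1 higher in the center and 4 lower, where 22.3% of 13594 genes were called. At E18.5, 4 of 8 were called, all lower in the center, where 24.2% were.

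*Rxrg* stood at 92.7, 76.1 and 75.7 normalized CPM in the centers of the 3 E14.5 controls, while their peripheries held 197, 180.4 and 137, with the intermediate spots between (log2 fold change −1.10, standard error 0.08, edgeR adjusted p = 3.14e-10). At E18.5 the center held 107 and 103 and the periphery 168 and 149.8 (log2 fold change −0.60, standard error 0.08, edgeR adjusted p = 1.44e-06). At E18.5 the intermediate spots, at 159 and 142, were nearly as high as the periphery, so that the center alone stood apart. The step was smaller at E18.5, by 0.51 (standard error 0.11, edgeR adjusted p = 0.00436), in a test that called 8.61% of genes. With regions set by distance from the muscle edge, *Rxrg* at E18.5 was 0.17 (adjusted p = 0.0841), the opposite direction and not called, and at E14.5 it shrank to −0.26 but was still called. The difference between stages was not called without E14.5 control 1, at 0.47 (adjusted p = 0.0576), E14.5 control 2, at 0.34 (adjusted p = 0.0704), or E18.5 control 2, at 0.45 (adjusted p = 0.0609).

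*Cyp26b1* had the steepest gradient at E18.5. Its level was 0.898 and 1.84 normalized CPM in the center of E18.5 controls 1 and 2, 1.72 and 2.45 in between and 9.22 and 11.1 in the periphery, 7.54-fold from center to periphery (log2 fold change −2.91, standard error 0.27, edgeR adjusted p = 1.28e-08). At E14.5 the center held 0.898, 2.10 and 1.21 and the periphery 2.27, 2.79 and 3.16, with the periphery higher in 3 of 3 sections but no call (log2 fold change −0.84, standard error 0.41, edgeR adjusted p = 0.156), on 4, 12 and 3 and 8, 14 and 7 UMIs. The gradients differed between stages by −2.08 (standard error 0.53, edgeR adjusted p = 0.014), a call lost without E14.5 control 2 at −1.63 (adjusted p = 0.266) and without E18.5 control 1 at −1.75 (adjusted p = 0.0968). The 6 tendon genes also rose toward the periphery, from a summed 577 and 612 CPM in the center to 1506 and 2148 in the periphery at E18.5, and from 392, 417 and 423 to 819, 1015 and 1025 at E14.5. All 6 were detected in both, and their part in the *Cyp26b1* gradient was not tested.

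*Crabp2* was lower in the center at both stages. At E14.5 the center held 40.4, 36.5 and 36.2 and the periphery 68.8, 69.7 and 60.1 normalized CPM, without overlap (log2 fold change −0.83, standard error 0.09, edgeR adjusted p = 8.51e-08). At E18.5 the values were 1.57 and 1.97 against 4.87 and 6.47 (log2 fold change −1.67, standard error 0.26, edgeR adjusted p = 2.69e-05). The connective tissue list showed the same order, with a summed 4276, 5208 and 4695 CPM in the E14.5 centers and 6833, 7990 and 6641 in the peripheries, and its part was not tested. *Crabp1* was called at both stages with smaller steps, −0.35 (standard error 0.12, edgeR adjusted p = 0.0399) and −0.91 (standard error 0.31, edgeR adjusted p = 0.0312). Neither *Crabp1* call was firm: without E14.5 control 1 the first was −0.10 (adjusted p = 0.711), and without E18.5 control 2 the second was −0.33 (adjusted p = 0.64).

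Of the enzymes, *Aldh1a2* was lower in the E14.5 center, at 3.59, 9.09 and 15.7 against 18.2, 32.1 and 17.6 in the periphery (log2 fold change −1.51, standard error 0.23, edgeR adjusted p = 2.67e-05). The periphery was higher in 3 of 3 sections, but only slightly in control 3. At E18.5 the values were 8.54 and 10.3 against 12.02 and 10.4, higher in the periphery of both sections, by little in control 2, and not called (log2 fold change −0.29, standard error 0.23, edgeR adjusted p = 0.426). The stages differed by 1.23 (standard error 0.34, edgeR adjusted p = 0.022), which was not called without E14.5 control 1 at 0.94 (adjusted p = 0.151), E14.5 control 2 at 0.81 (adjusted p = 0.297) or E18.5 control 2 at 1.001 (adjusted p = 0.179). *Aldh1a3* was the one gene higher in the center, and was called at E14.5 alone, with 54.3, 37.2 and 33.8 against 25.3, 31.1 and 29.4 (log2 fold change 0.55, standard error 0.13, edgeR adjusted p = 0.00325). Without E14.5 control 1, whose center stood far above its periphery, *Aldh1a3* was 0.26 (adjusted p = 0.226). *Aldh1a1* and *Stra6* were not called at either stage.

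**Figure D4:**
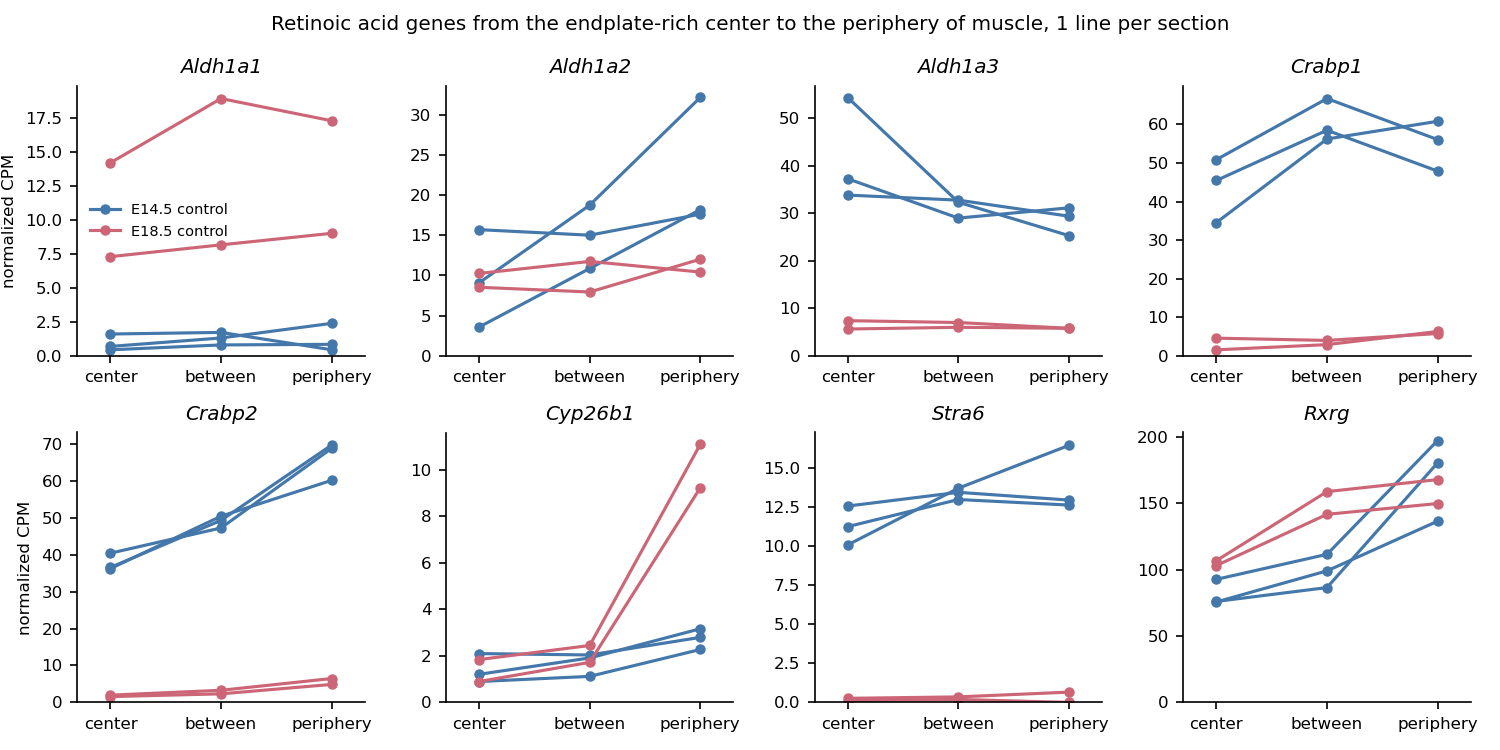
Normalized CPM of the 8 genes in the endplate-rich center, the spots between and the periphery of muscle, 1 line per control section at E14.5 (blue) and E18.5 (red). *Crabp2* and *Rxrg* climb toward the periphery in all 5 sections, and *Cyp26b1* climbs steeply in both E18.5 sections, whereas *Aldh1a3* is highest in the center of E14.5 control 1.

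Outside muscle, spots were ranked in each section by 7 genes of mesothelium, the sheet that covers the diaphragm, and the highest 20% were called mesothelium-rich. *Aldh1a2* was higher in these spots at both stages. In E14.5 controls 1, 2 and 3 it stood at 77.5, 125 and 61.0 normalized CPM in mesothelium-rich spots and at 39.5, 32.4 and 28.9 in the other spots outside muscle. In E18.5 controls 1 and 2 it stood at 181 and 52.7 against 29.3 and 8.80. Every section was higher in its mesothelium-rich spots, 2.68-fold at E14.5 (log2 fold change 1.42, standard error 0.19, edgeR adjusted p = 0.00175) and 6.11-fold at E18.5 (log2 fold change 2.61, standard error 0.24, edgeR adjusted p = 1.33e-04). The difference between stages was not called, at 1.19 (standard error 0.30, edgeR adjusted p = 0.217), in which 0.174% of genes were called.

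Of the 8 genes *Aldh1a2* alone was called in mesothelium-rich spots, at each stage, where 3.4% of 12631 genes were called at E14.5 and 4.18% at E18.5. The calls held without each section in turn. The difference in *Aldh1a2* between E18.5 controls 1 and 2, seen above over all spots outside muscle, was present in both kinds of spot. *Cyp26b1* had the next lowest p, on the other side: it stood at 3.11, 5.79 and 8.71 in mesothelium-rich spots against 4.54, 20.4 and 12.4 at E14.5, and 20.3 and 30.2 against 43.8 and 51.0 at E18.5. It was lower in 5 of 5 sections without a call (−1.31 and −0.91, edgeR adjusted p = 0.0605 and 0.0875).

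Tendon-rich spots, the highest 20% by 6 tendon genes, gave another picture. At E18.5, *Cyp26b1* stood at 84.5 and 125 normalized CPM in tendon-rich spots and at 26.04 and 31.4 in the other spots outside muscle, 3.60-fold higher in the first (log2 fold change 1.85, standard error 0.26, edgeR adjusted p = 1.38e-04). At E14.5 the values were 9.01, 15.2 and 33.2 against 3.63, 16.8 and 5.14, higher in controls 1 and 3 and lower in control 2, and not called (log2 fold change 0.57, standard error 0.37, edgeR adjusted p = 0.46). The stages were not shown to differ (log2 fold change 1.28, standard error 0.44, edgeR adjusted p = 0.186), with 1.64% of 11973 genes called in that test.

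*Aldh1a1* was also higher in tendon-rich spots at E18.5, at 69.2 and 75.2 against 35.2 and 30.8 (log2 fold change 1.13, standard error 0.21, edgeR adjusted p = 0.00174). *Aldh1a3* was lower there, at 3.22 and 7.92 against 14.51 and 27.3 (log2 fold change −1.92, standard error 0.40, edgeR adjusted p = 0.00325), on 4 and 8 UMIs in tendon-rich spots. Without E18.5 control 2 neither was called, *Aldh1a1* at 0.96 (adjusted p = 0.118) and *Aldh1a3* at −2.18 (adjusted p = 0.0803). So 3 of 8 genes were called at E18.5, 2 higher and 1 lower, against 16.8% of 11973 genes. *Stra6* had 0 UMIs in the tendon-rich spots of both E18.5 controls, which allows up to 2.04 and 2.26 CPM in controls 1 and 2, and intervals and such limits cover counting error only.

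At E14.5, 2 of 8 genes were called in tendon-rich spots, 1 higher and 1 lower, where 7.54% of genes were called. *Aldh1a2* was lower, at 16.2, 34.5 and 18.1 against 51.5, 56.7 and 36.9 in 3 of 3 sections (log2 fold change −1.04, standard error 0.20, edgeR adjusted p = 0.00365). *Crabp2* was higher, at 146, 200.88 and 127 against 90.3, 132 and 147, in controls 1 and 2 but not in control 3 (log2 fold change 0.50, standard error 0.13, edgeR adjusted p = 0.0259). The *Crabp2* call was lost without E14.5 control 1 at 0.39 (adjusted p = 0.127), without E14.5 control 2 at 0.38 (adjusted p = 0.311), and also without liver and adrenal spots, which touch the diaphragm in some sections, at 0.32 (adjusted p = 0.111). Tendon-rich spots nearer to and farther from the outline of the E14.5 sections, as a proxy for peripheral and central tendon, had none of the 5 genes tested called by edgeR, 4 with an unadjusted p below 0.05 and 0 called by DESeq2, where edgeR called 0.0576% of 8679 genes. *Aldh1a1*, *Cyp26b1* and *Stra6* were too low there to be tested.

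The mesothelium-rich and tendon-rich spots were mostly different spots, with 0 to 4 spots in common in the control sections. Spots rich in other tissue were compared as log2 ratios without a test. At E18.5, *Aldh1a3* had a mean log2 ratio of 1.32 in connective-tissue-rich spots and 1.04 in macrophage-rich spots over the other spots outside muscle, with both sections alike, against −2.08 in tendon-rich spots. *Cyp26b1* had 1.07 in cartilage-rich spots and −1.43 in connective-tissue-rich spots. Of the cartilage-rich spots in E18.5 controls 1 and 2, 45.9% and 46.2% were also tendon-rich. *Aldh1a2* had −1.32 in cartilage-rich and −1.16 in endothelium-rich spots. At E14.5, *Crabp1* had 0.53 and *Crabp2* 0.58 in connective-tissue-rich spots, higher in 3 of 3 sections.

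**Figure D5:**
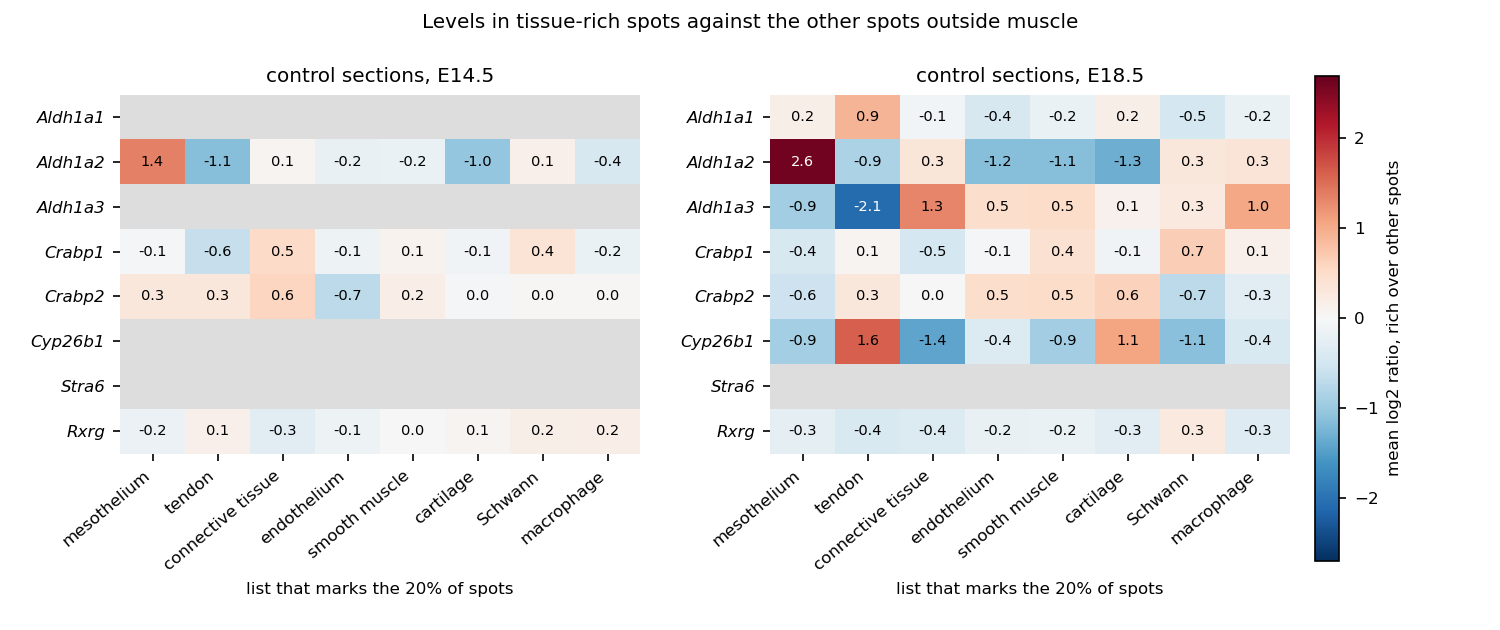
Mean log2 ratio of each gene's level in spots rich in a tissue (the highest 20% by that tissue's list) over the other spots outside muscle of the same section, over 3 control sections at E14.5 (left) and 2 at E18.5 (right), with gray where a section has fewer than 20 UMIs of the gene outside muscle. *Aldh1a2* stands out in mesothelium-rich spots at both stages, with ratios of 1.36 and 2.60, and *Cyp26b1* in tendon-rich spots at E18.5, at 1.62.

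The mutants were compared with the controls of their stage, so KO and cKO at E18.5 share the same 2 control sections. In muscle of the KO at E18.5, 3 of the 8 genes were called, all higher: *Aldh1a3*, *Crabp1* and *Crabp2*. The comparison called 25.7% of 14832 genes, 10.6% higher and 15.2% lower. Its median log2 fold change was 0.99 over the 8 genes and 0.00 over all genes tested. These 3 are genes that were lower at E18.5 than at E14.5 in control muscle.

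*Aldh1a3* stood at 12.3 normalized CPM in KO muscle against 6.89 and 5.95 in E18.5 controls 1 and 2, 1.92-fold higher (log2 fold change 0.94, standard error 0.16, edgeR adjusted p = 0.00663). *Crabp1* stood at 8.46 against 4.43 and 3.28 (log2 fold change 1.13, standard error 0.21, edgeR adjusted p = 0.00812), and *Crabp2* at 6.38 against 2.65 and 3.61 (log2 fold change 1.03, standard error 0.19, edgeR adjusted p = 0.00897). All 3 remained far below their E14.5 control levels and were called in each alternative, including without either E18.5 control. They rest on 213, 146 and 110 UMIs in the KO section.

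The others were not called in KO muscle at E18.5. All 8 genes lay above both controls there, and the share of all genes that do so was not counted. *Aldh1a1* stood at 27.6 against 8.20 and 17.96 (log2 fold change 1.08, standard error 0.43, edgeR adjusted p = 0.104), and *Aldh1a2* at 18.495 against 8.78 and 11.3 (log2 fold change 0.88, standard error 0.30, edgeR adjusted p = 0.0694). *Cyp26b1* stood at 5.16 against 2.91 and 3.78, *Rxrg* at 163 against 152 and 137, and *Stra6* at 0.580 on 10 UMIs against 0.145 and 0.391. Without E18.5 control 2, *Aldh1a1* was called at 1.75 (adjusted p = 0.0113) and *Stra6* at 1.97 (adjusted p = 0.0253), and without E14.5 control 1 or 2, *Aldh1a2* at 0.88 (adjusted p = 0.026) and 0.88 (adjusted p = 0.0465). Scaled to library totals, where the median of all genes lies at 0.54 and 7995 of 14832 genes were called, all 8 genes were called higher.

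The KO muscle spots also differed in the marker lists. The summed muscle list was 71384 CPM in the KO against 128420 and 131920 in the E18.5 controls, and all 9 of its genes were detected. The mesothelium list was 360.2 against 60.3 and 197, the Schwann list 128 against 20.5 and 24.5, the macrophage list 289 against 81.3 and 107, and the connective tissue list 4536 against 4189 and 4659. No gene of these lists was at 0. Their part in the differences of the 8 genes was not tested. Over muscle spots surrounded by muscle alone, *Aldh1a3*, *Crabp1* and *Crabp2* were still called, whereas *Aldh1a2* was 0.03 (adjusted p = 0.972).

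In KO muscle at E14.5 none of the 8 genes was called by edgeR, 3 had an unadjusted p below 0.05, and DESeq2 called *Crabp1* and *Crabp2*. The comparison called 2.08% of 14832 genes. *Crabp1* stood at 90.6 normalized CPM against 53.7, 62.3 and 54.1 in the E14.5 controls (log2 fold change 0.67, standard error 0.16, edgeR adjusted p = 0.0845), and *Crabp2* at 78.5 against 49.9, 49.8 and 48.8 (log2 fold change 0.67, standard error 0.14, edgeR adjusted p = 0.0662). Both KO values lay above all 3 controls. *Stra6* stood at 21.1 against 13.7, 13.2 and 12.5 and *Aldh1a2* at 23.4 against 10.8, 19.0 and 15.3, again above the controls without a call. *Aldh1a1* at 1.24 and *Cyp26b1* at 1.28 lay within the range of the controls, *Rxrg* at 124 just above it, and *Aldh1a3* at 28.3 just below it. The summed muscle list was 16235 CPM in KO muscle spots against 27362, 21642 and 22937, the mesothelium list 126 against 83.1, 131 and 106, and their part was not tested.

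*Aldh1a3* was the one gene whose KO effect in muscle differed between stages: −0.21 (standard error 0.15, edgeR adjusted p = 0.532) at E14.5 and 0.94 (standard error 0.16, edgeR adjusted p = 0.00663) at E18.5, a difference of 1.16 (standard error 0.22, edgeR adjusted p = 0.0326). That test called 6.4% of genes. The difference was not called without E14.5 control 2 at 1.21 (adjusted p = 0.0581) or without E14.5 control 3 at 1.17 (adjusted p = 0.0915). For *Crabp1* and *Crabp2* it was 0.45 (edgeR adjusted p = 0.318) and 0.37 (edgeR adjusted p = 0.38), so their KO effects were not shown to differ between stages.

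In muscle of the cKO at E18.5, 3 of 8 genes were called, all higher, where 8.8% of 14832 genes were called: *Crabp1*, *Crabp2* and *Stra6*. *Crabp1* stood at 8.83 normalized CPM against 4.43 and 3.28 (log2 fold change 1.19, standard error 0.19, edgeR adjusted p = 0.0116), and *Crabp2* at 5.40 against 2.65 and 3.61 (log2 fold change 0.79, standard error 0.18, edgeR adjusted p = 0.0363). *Stra6* stood at 1.15 on 47 UMIs against 0.145 and 0.391 on 8 and 18, 4.36-fold higher (log2 fold change 2.12, standard error 0.41, edgeR adjusted p = 0.0226), and remained far below its E14.5 level. The *Crabp2* call was lost without E14.5 control 2 at 0.79 (adjusted p = 0.0612), without E14.5 control 3 at 0.79 (adjusted p = 0.0818), without E18.5 control 1 at 0.58 (adjusted p = 0.0546), and over muscle spots surrounded by muscle at 0.74 (adjusted p = 0.0942). The *Stra6* call was lost without E14.5 control 3 at 2.12 (adjusted p = 0.0607), and its size was 1.55 (adjusted p = 0.0217) without E18.5 control 1 and 2.95 (adjusted p = 0.00594) without E18.5 control 2. *Crabp1* was called without each control, and with a block for replicate number none of the 3 was, at 1.16 (adjusted p = 0.0851), 0.90 (adjusted p = 0.0922) and 2.33 (adjusted p = 0.0925).

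The other 5 genes were not called in cKO muscle. *Aldh1a3* stood at 8.05 against 6.89 and 5.95 (log2 fold change 0.32, standard error 0.16, edgeR adjusted p = 0.249), *Aldh1a2* at 14.3 against 8.78 and 11.3 (log2 fold change 0.51, standard error 0.30, edgeR adjusted p = 0.329), and *Rxrg* at 162 against 152 and 137. These 3 lay above both controls, as did the 3 called genes. *Aldh1a1* at 9.95 and *Cyp26b1* at 3.30 lay between the controls. The share of all genes above both controls was not counted. In cKO muscle spots the summed muscle list was 105200 CPM, the mesothelium list 206, the connective tissue list 5962, the smooth muscle list 568 and the Schwann list 23.0, and their part was not tested. The E18.5 control sums of these lists are given above beside the KO, apart from that of the smooth muscle list, which is not reported here.

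Outside muscle no gene of the 8 was called in a mutant by edgeR or by DESeq2, with 0, 1 and 0 at an unadjusted p below 0.05 in the E14.5 KO, E18.5 KO and cKO sections. Of 14799 genes, 0% were called by edgeR in the KO at E14.5, with 1208 genes at an unadjusted p below 0.05 and 166 called by DESeq2. In the KO at E18.5 0.108% were called and in the cKO 1.22%. *Aldh1a1* stood at 90.4 normalized CPM in the KO at E18.5 against 43.9 and 38.5 (log2 fold change 1.13, standard error 0.45, edgeR adjusted p = 0.373). *Cyp26b1* stood at 15.8 in the KO and 16.3 in the cKO, both below the 39.4 and 46.9 of the controls with log2 fold changes of −1.45 (edgeR adjusted p = 0.46) and −1.40 (edgeR adjusted p = 0.444).

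*Aldh1a2* outside muscle stood at 102 in the cKO and 76.2 in the KO at E18.5, above the 56.7 and 16.8 of the controls with log2 fold changes of 1.47 (edgeR adjusted p = 0.351) and 1.05 (edgeR adjusted p = 0.515). The mesothelium list moved with it, at 2209 CPM in the cKO, 1270.2 in the KO and 776 and 316 in the controls. The tendon list moved with *Cyp26b1*, at 2382, 1691 and 4715 and 5642. The part of these lists in the differences was not tested, and the spots outside muscle of a section depend on which tissue was cut with the diaphragm.

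The wider retinoid pathway was read from a list of 32 other genes, among them retinol dehydrogenases, retinol-binding proteins and the nuclear receptors. Between stages in muscle, 31 were tested and 11 were higher and 7 lower at E18.5, with a median log2 fold change of 0.02, where 65.6% of all genes were called. Outside muscle 4 were higher and 2 lower of 30, where 30.6% of all genes were called. In muscle, *Adh1*, an alcohol dehydrogenase, rose with a log2 fold change of 2.92 (standard error 0.66, edgeR adjusted p = 0.00514). Outside muscle *Dhrs3*, which reduces retinaldehyde back to retinol, was higher at E18.5 by a log2 fold change of 1.61 (standard error 0.18, edgeR adjusted p = 0.00295), and *Rdh10*, which makes retinaldehyde from retinol, was lower, at −1.01 (standard error 0.15, edgeR adjusted p = 0.00613). *Rdh10* stood at 72.6, 78.9 and 92.1 CPM without TMM at E14.5 and 28.8 and 36.8 at E18.5.

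In mutant muscle 31 of the 32 were tested. In the KO at E18.5, 2 were called higher and 2 lower, where 25.7% of all genes were called. In the KO at E14.5 it was 1 each, beside 2.08% of all genes, and in the cKO 1 higher and 2 lower, beside 8.8%. *Rdh13*, a retinol dehydrogenase, was called lower in muscle of both E18.5 mutants, at −0.59 (standard error 0.11, edgeR adjusted p = 0.00862) in the KO and −0.45 (standard error 0.11, edgeR adjusted p = 0.0436) in the cKO.

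By place, 1 gene of the pathway list was higher and 8 lower in muscle than in other spots at E14.5, and 9 higher and 10 lower at E18.5, of 28 tested. Over all genes 40.9% and 57.9% were called. *Cyp26a1*, which breaks retinoic acid down like *Cyp26b1*, was lower in muscle at both stages, by log2 fold changes of −1.41 (standard error 0.33, edgeR adjusted p = 0.0136) and −2.82 (standard error 0.39, edgeR adjusted p = 8.58e-04). Between muscle center and periphery it was lower in the center at both, at −2.21 (standard error 0.55, edgeR adjusted p = 0.00454) and −3.54 (standard error 0.79, edgeR adjusted p = 0.00148). In tendon-rich spots at E18.5 it was higher, at 2.58 (standard error 0.48, edgeR adjusted p = 0.00158). These *Cyp26a1* values rest on few UMIs. All muscle spots held 23, 65 and 9 in the E14.5 controls and 21 and 23 in the E18.5 controls. All spots outside muscle held 28 and 23 in the E18.5 controls. Between center and periphery 2 of 25 listed genes were higher in the center and 3 lower at E14.5, and 6 higher and 3 lower at E18.5, against 22.3% and 24.2% of all genes called.

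A list of 17 genes that retinoic acid is known to induce, some of which are also on the pathway list, of which 15 were tested between stages, gave 4 higher and 7 lower in muscle at E18.5, and 4 higher and 4 lower outside it. Of all genes 65.6% and 30.6% were called in these fits. *Tgm2*, transglutaminase 2, had the largest change, 4.17 (standard error 0.17, edgeR adjusted p = 1.29e-06) in muscle. In muscle of the KO at E18.5, 4 of 15 were higher and 1 lower, beside 25.7% of all genes called, with *Nr2f2* at 0.76 (standard error 0.15, edgeR adjusted p = 0.0123) and *Tgm2* at −1.30 (standard error 0.22, edgeR adjusted p = 0.00681). Of 14 genes tested, 9 were lower in muscle than in other spots at E14.5 and 9 at E18.5, with 2 higher at E18.5, and medians of −0.73 and −1.02 against 0.01 and −0.01 over all genes. Of all genes 18.04% and 26.8% were called lower. In mesothelium-rich spots 3 of 13 were higher at each stage, where 3.4% and 4.18% of all genes were called. They were *Tgm2*, *Rarres2* and *Meis2* at E14.5 (1.35, 1.27 and 0.70) and *Rarres1*, *Rarres2* and *Dhrs3* at E18.5 (2.52, 1.70 and 0.63).

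Retinoic acid receptors bind pairs of half-sites in direct repeat, so the promoters were searched for such letters. RefSeq promoters of GRCm38.p6, from 250 bases before to 50 after each start, were read on both strands for any pair of the half-sites AGGTCA, the consensus, and GGGTCA, a common form, or of AGTTCA, a known variant, and GGTTCA, another, in any combination, spaced by 1, 2 or 5 bases. Of 32851 promoters, 0.222% held a pair spaced by 1 base, 0.268% by 2 and 0.0974% by 5. None of 11 promoters of 6 of the 8 genes held one, and *Aldh1a3* and *Crabp2* had no entry. Of 12 genes of the retinoic-acid-induced list with a promoter in the table, *Rarb* and *Cyp26a1* held a pair spaced by 5 bases. They are shown 5′ to 3′ on the strand of their gene, with the half-sites in capitals, and in *Cyp26a1* the repeat reads on the opposite strand.
*Rarb*, chr14:16575513-16575529, minus strand: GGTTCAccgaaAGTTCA
*Cyp26a1*, chr19:37697776-37697792, plus strand: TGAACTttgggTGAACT
A match of letters is a description and not a bound site, and the absence of one says only that the letters are not in these windows.

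Over 683 to 3460 spots, the Pearson r of log-normalized values between any 2 of them lay between −0.21 and 0.31 in the 5 control sections, and spots of a section share their library and depth. The highest was between *Aldh1a1* and *Cyp26b1* in E14.5 control 2, at 0.31. That pair had 0.10 and 0.016 in E14.5 controls 1 and 3, and 0.23 and 0.22 in E18.5 controls 1 and 2. It had 0.0025, 0.018 and 0.22 in the E14.5 KO, E18.5 KO and cKO sections. In the mutants the widest values were 0.475 between *Aldh1a1* and *Aldh1a2* in the E18.5 KO and −0.285 between *Aldh1a2* and *Rxrg* in the cKO. Moran's I, the authors' score for how clustered a gene is in a section, ranked *Aldh1a2* 396th of 16636, 275th of 17937 and 1779th of 17117 genes in E14.5 controls 1, 2 and 3, and 446th of 17846 and 1880th of 16713 in E18.5 controls 1 and 2. *Cyp26b1* stood at rank 7030, 1251 and 2126 at E14.5 and 517 and 316 at E18.5. Its UMIs in the same sections were 76, 252 and 48 at E14.5 and 396 and 470 at E18.5.

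The genes most like each of the 8 across spots were taken by mean Pearson r over the controls of a stage, among 11827 genes at E14.5 and 11504 at E18.5 seen in at least 5% of the spots of every control. For *Aldh1a2* they were *Krt7*, *S100a6* and *Lrrn4* at E14.5 (0.40, 0.35 and 0.35) and *Lrrn4*, *Myrf* and *Gpm6a* at E18.5 (0.53, 0.51 and 0.50), of which *Krt7* and *Lrrn4* are on the mesothelium list. For *Cyp26b1* they were *Col2a1*, *C1qtnf3* and *Tnn* at E14.5 (0.29, 0.26 and 0.23) and *Fmod*, *Ecrg4* and *Angptl7* at E18.5 (0.58, 0.56 and 0.55). *Fmod* is a small proteoglycan of tendon and was on the tendon list. For *Rxrg* they were *Col22a1*, *Myh3* and *Myh7* at E14.5 (0.40, 0.39 and 0.38), a myotendinous collagen and the embryonic and slow myosins, and *Ttn*, *Atp1b4* and *Myh8* at E18.5 (all 0.31). *Col22a1* was also used to find the muscle periphery, so this likeness and the *Rxrg* gradient are not independent.

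*Crabp2* was most like the collagens *Col3a1* and *Col12a1* and the growth factor *Ptn* at E14.5 (0.44, 0.44 and 0.42) and *Prss35*, *Col1a2* and *Postn* at E18.5 (0.26, 0.26 and 0.25). *Aldh1a1* was most like *P4ha2*, *Col1a1* and *Col1a2* at E14.5 (0.20, 0.19 and 0.19) and *Col1a1*, *Col1a2* and *Sparc* at E18.5 (0.34, 0.33 and 0.33). *Aldh1a3* was most like *Col5a3*, *Gap43* and *Tmsb4x* at E18.5 (0.25, 0.23 and 0.23). For *Crabp1* the highest was *Gpc3* at E14.5 (0.20) and *Uchl1*, which was also used to find the muscle periphery, at E18.5 (0.15). For *Stra6* it was *Ccdc141* (0.14) and *Ecel1* (0.17).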

How the data were processed

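Formaldehyde-fixed, paraffin-embedded diaphragm sections were profiled by the authors with probe pairs on Visium slides, and reads were counted with Space Ranger, version 2.0.0 for the first 2 controls and the KO of E14.5 and 2.0.1 for the others per the file headers, on mm10. The deposited matrices hold UMI counts per gene and spot, without normalization, and a deposited table per section holds a score, Moran's I, per gene. Probe pairs read a short stretch of each transcript, so a gene's level depends on where its probes lie. The 8 genes, the gene lists and the marker lists were chosen with earlier results of these data known. Columns of other samples numbered 0.

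Spots with at least 1000 UMIs were kept and log-normalized to 10000 UMIs to find muscle, by the mean of 9 muscle genes above the section's Otsu threshold. UMIs were summed per section and region and fitted in R 4.3.3 with edgeR 4.0.16 (filterByExpr, TMM, quasi-likelihood F test, Benjamini-Hochberg). Stage and mutant effects came from 1 fit over 8 sections and 5 groups, and places within sections from fits over the 5 control sections with the section as a block. The block was used because muscle and other spots of 1 section deviated together from their group means (r = 0.702, 0.577 and 0.416 at E14.5 and 0.614 at E18.5, over 11084 genes). The 2 E18.5 controls mirror each other around their mean, so they give 1 value of r. By the study's account the controls of a stage were separate diaphragms, and p-values measure the spread between these sections. DESeq2 1.42.0 and limma 3.58.1 were alternatives or helpers, with Python 3.11.15, numpy 2.4.6, scipy 1.17.1 and pandas 2.3.3. The fits were tested on simulated counts with 200 genes changed: smaller changes were recovered least often outside muscle between stages, and the share of false calls lay above the nominal rate in most fits.

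The 8 genes are given in full. From the pathway and retinoic-acid-induced lists up to 4 genes per comparison with the largest called changes could be named, and for each of the 8 genes the 3 most similar genes. Some genes that this rule names are not reported here. Gene positions are from GENCODE vM21. Limits for counts of 0 use 3 counts, intervals of counts are exact 95% Poisson intervals, and both cover counting error only. Depth was 14179161 to 82859104 UMIs per section, so low genes such as *Stra6* at E18.5 rest on few UMIs.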

Additional observations from a re-analysis of the deposited data

Results flagged for a closer look

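The KO effect on *Aldh1a3* in muscle differed between stages by 1.16 on the log2 scale in the test of the difference itself, edgeR adjusted p = 0.0326, with 1 KO section at each stage.

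The contrast of muscle with other spots differed between E18.5 and E14.5 in the test of the difference for *Aldh1a3* by −2.18, for *Crabp2* by −0.83 and for *Stra6* by −2.89, with edgeR adjusted p = 0.0113, 0.0435 and 0.0233. The contrast of muscle center with periphery differed between stages for *Aldh1a2* by 1.23, for *Cyp26b1* by −2.08 and for *Rxrg* by 0.51, with edgeR adjusted p = 0.022, 0.014 and 0.00436. Among these 7 differences, that of *Aldh1a3* between muscle and other spots was called under every alternative run, and each of the others was lost without at least 1 control section.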

How the results depend on the processing

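Of 54 results on the 8 genes past the threshold, 23 stayed past it in every alternative run and 52 kept their direction. The exceptions were *Rxrg* in muscle between stages, −0.27 without TMM, and *Rxrg* between center and periphery at E18.5, 0.17 with regions by position. Values that were not called were followed over the alternatives only between stages and in muscle of the KO and cKO at E18.5. Among these, signs turned for *Rxrg* outside muscle between stages (−0.0625 without TMM, −0.0819 to 0.497 with 1 control section left out), *Aldh1a3* there (−0.60 to 0.34 with 1 left out) and *Aldh1a2* there (−1.49 to 0.27 with 1 left out). In cKO muscle they turned for *Cyp26b1* (0.20 without TMM, 0.41 over muscle spots surrounded by muscle, 0.27 with the replicate block, −0.19 to 0.18 with 1 left out), *Aldh1a1* (0.23 with the block, −0.85 to 0.28 with 1 left out) and *Aldh1a2* (−0.0115 over muscle spots surrounded by muscle).

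Replicate numbers do not pair sections, since embryos of different age differ. The same numbers at both stages had r = −0.189 and −0.237 over 11084 genes. Both values use the same E18.5 deviations, with the sign reversed, since the 2 E18.5 controls mirror each other around their mean. With the number as a replicate block, calls over all genes became 2738 outside muscle between stages, 0 in KO muscle at E14.5, 0 outside muscle in the E18.5 KO and cKO sections, and 81 in cKO muscle. Without the section as replicate block, calls became 1340 and 918 between center and periphery at E14.5 and E18.5, 0 and 0 in mesothelium-rich spots, 93 and 466 in tendon-rich spots and 0 between central and peripheral tendon.

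DESeq2 called 696 genes in KO muscle at E14.5, 166, 379 and 576 outside muscle in the E14.5 KO, E18.5 KO and cKO sections, 2143 between center and periphery at E18.5, 213 and 285 in mesothelium-rich spots, 403 and 827 in tendon-rich spots and 0 between central and peripheral tendon. Without a filter on low counts calls were 536 in KO muscle at E14.5, 1 and 35 outside muscle in the KO at E14.5 and E18.5, 1359 in tendon-rich spots at E14.5 and 17 between tendon places. Over muscle spots surrounded by muscle they were 168 and 2357 in the KO at E14.5 and E18.5. Without TMM they were 7995 in KO muscle and 2826 in cKO muscle at E18.5, and 10 between tendon places. Without liver and adrenal spots they were 25, 173 and 566 outside muscle in the E14.5 KO, E18.5 KO and cKO sections. With at least 5000 UMIs per spot they were 1 outside muscle in the KO at E14.5 and 2 between tendon places, and by position 5938 between center and periphery at E18.5.

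With each control section left out in turn, calls over all genes ranged from 2389 to 3487 outside muscle between stages, 65 to 391 in KO muscle at E14.5, 0 to 11 and 0 to 58 outside muscle in the KO at E14.5 and E18.5, and 576 to 1461 in muscle and 62 to 307 outside muscle in the cKO. They ranged from 2982 to 5970 between muscle and other spots at E14.5, 1735 to 3182 and 1587 to 3393 between center and periphery at E14.5 and E18.5, 248 to 460 and 106 to 683 in mesothelium-rich spots, 600 to 863 and 629 to 2430 in tendon-rich spots and 0 to 43 between tendon places. The cause of these shifts was not tested.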
